A study of Saccharomyces cerevisiae with 12 samples.

Results

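The comparison of the yeast strain hac1∆(hsf1) with WT used 6 of the 12 arrays of the series, the 3 biological replicates of each of those strains. The cells were Saccharomyces cerevisiae, budding yeast. Per the labels, 4 strains were grown with 3 replicates each: besides these, hac1∆ and WT(hsf1). All 4 were in early exponential phase in synthetic medium without uracil at the same temperature and received 2.5 mM dithiothreitol (DTT) for 2 h, so every group carries the treatment and no untreated culture is compared. hac1∆ marks the deletion of HAC1. The meaning of "(hsf1)", the parent strain, its mating type and its markers are not given in the labels, and "(hsf1)" serves below as a strain name only. The comparison asks what still separates DTT-treated hac1∆(hsf1) cells from DTT-treated WT cells.

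DTT is a reducing agent that disturbs the making of disulfide bonds in the endoplasmic reticulum (ER). In budding yeast the sensor Ire1 answers unfolded ER protein by splicing the HAC1 message, and the Hac1 protein then switches on genes of ER folding, glycosylation and secretion, which is the unfolded protein response. Hsf1 is the heat shock factor, an essential activator of cytosolic chaperone genes with some targets in the ER.

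Signals were read as log2 values per gene, 1 probe set for each of 5449 S. cerevisiae genes. A difference is the hac1∆(hsf1) mean minus the WT mean in log2 units, followed by ± its standard error, and a gene counts as higher or lower where limma's adjusted p was under 0.05. Background was 5.49, the 95th percentile of probe sets of the array's other yeast. In bulk RNA, fewer cells of a kind and less RNA per cell cannot be told apart. Probe sets of near-identical paralogs, such as ribosomal protein pairs, SSA1 and SSA2, SSB1 and SSB2, or YOR387C and VEL1, may share signal.

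WT replicate 2 stood apart from its group. The array carries 47 reporter control probe sets, made for marker sequences rather than for genes of the yeast gene table. One of them read 5.16 and 5.16 on WT replicates 1 and 3 and 10.47 on replicate 2. It read 11.22, 11.27 and 11.12 in hac1∆(hsf1) and 11.24, 11.26 and 11.20 in hac1∆. In WT(hsf1) it was at 5.21, 5.18 and 5.23. So WT replicate 2 carried a signal that was otherwise below background in the strains with HAC1 and high in both hac1∆ strains. None of the other 46 reporter probe sets differed between replicate 2 and the mean of the other WT arrays by more than 0.32.

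The genes of WT replicate 2 moved the same way. Of the 115 genes whose hac1∆(hsf1) mean was at least 1 above the mean of WT replicates 1 and 3 on the log2 scale, all 115 lay above those replicates on replicate 2, toward hac1∆(hsf1). The median gene had covered 0.51 of the distance on the log2 scale and 0.38 on the linear scale. The 80 genes at least 1 lower all lay below, with a median of 0.21 of the distance on the log2 scale and 0.30 on the linear scale. Over all genes, replicate 2 correlated with the hac1∆(hsf1) arrays at 0.973 to 0.978, against 0.942 to 0.951 for WT replicate 1 and 0.939 to 0.948 for WT replicate 3. The correlations run over genes, which are not replicates. What made replicate 2 differ was not tested. For hac1∆(hsf1) minus WT, counts over all genes and list medians are therefore printed over all arrays and without WT replicate 2. So are most genes given array by array. Other genes and the counts of most lists are given over all arrays. All values of hac1∆ minus WT and WT(hsf1) minus WT are given with WT replicate 2 only. Of 336 genes examined by name, 317 had the same call or absence of a call without WT replicate 2, 9 lost a call and 10 gained one.

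**Figure D1:**
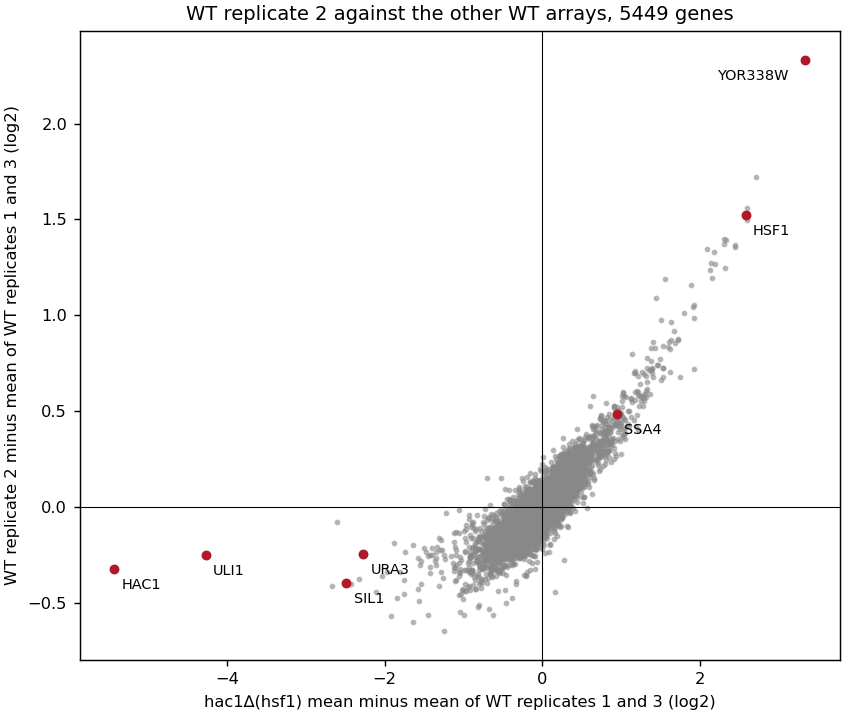
Shift of WT replicate 2 from the mean of WT replicates 1 and 3 (vertical, log2) against the difference of the hac1∆(hsf1) mean from the same 2 arrays (horizontal, log2), 1 point per gene. All 115 genes at 1 or more on the horizontal axis, up to YOR338W, lay above 0 on the vertical axis, and all 80 at -1 or less lay below 0. Genes nearer to 0 lay on both sides.

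The deleted gene was read first. HAC1 signal was 10.80, 10.37 and 10.58 in WT and 5.25, 5.31 and 5.21 in hac1∆(hsf1), and hac1∆ averaged 5.24. All arrays of both deletion strains lay below background, and the WT arrays far above it. Relative to WT, the HAC1 signal of hac1∆(hsf1) was at least 34.1-fold lower, or at least 36.7-fold lower when WT replicate 2 was left out (limma adjusted p = 4.46e-13 and 1.91e-14). IRE1, the kinase and nuclease that splices HAC1 RNA, read 7.06, 7.03 and 7.14 in WT and 7.08, 7.18 and 7.04 in hac1∆(hsf1). The IRE1 arrays overlapped, and the 95% interval of the difference ran from -0.08 to 0.13.

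HSF1, the gene of the heat shock factor, was higher in hac1∆(hsf1) than in WT. Its signal was 8.08, 9.61 and 8.11 in WT and 10.54, 10.81 and 10.66 in hac1∆(hsf1). The groups did not overlap, and WT replicate 2 lay between the other WT arrays and hac1∆(hsf1). The difference was 2.07 ± 0.30, or 4.21-fold (limma adjusted p = 9.82e-05), and 2.58 ± 0.08, or 5.98-fold, without WT replicate 2. The mean HSF1 signal was 7.83 in hac1∆ and 8.52 in WT(hsf1), so the strain labelled WT(hsf1) had no comparable HSF1 signal.

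**Figure D2:**
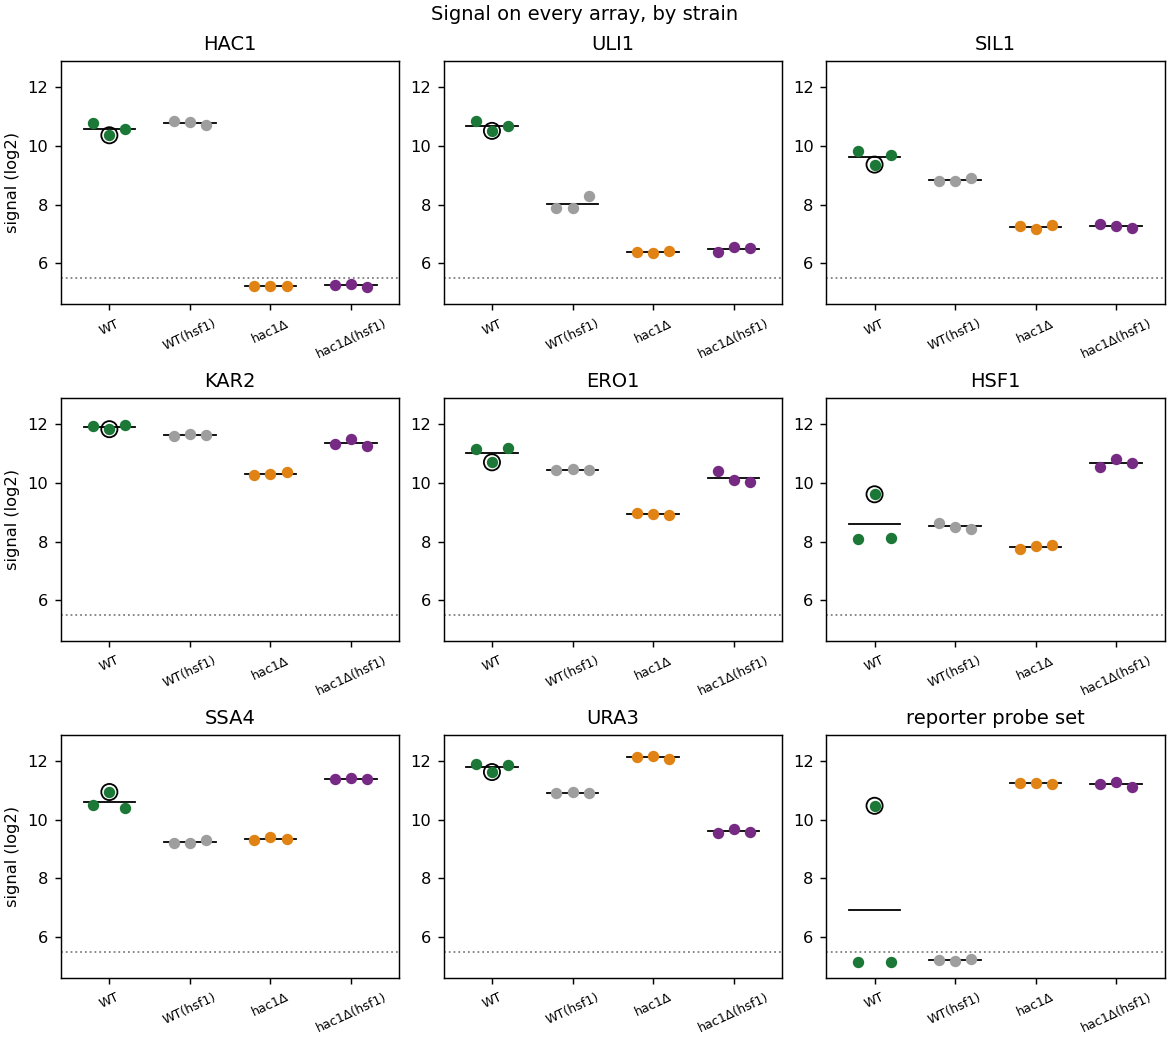
Signal (log2) of 8 genes and the reporter probe set on each of the 12 arrays. Points are arrays in the order of their replicate numbers, bars are strain means, the circle marks WT replicate 2 and the dotted line is background at 5.49. HAC1, ULI1 and SIL1 were low in both deletion strains, KAR2 and ERO1 lay between hac1∆ and WT in hac1∆(hsf1), HSF1 and SSA4 were highest in hac1∆(hsf1), and the reporter was high in both deletion strains and on WT replicate 2.

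The 2 strains differed at 3111 genes, 57.1% of those tested, mostly by small amounts, and the 3 arrays of one did not overlap with the 3 of the other at 57.7%. Limma called 1581 genes higher in hac1∆(hsf1), 29.0% of those tested, and 1530 lower, 28.1%. Of these, 81 were higher and 64 were lower by 2-fold or more. Without WT replicate 2 the calls came to 3276 genes (60.1%), 1673 higher (30.7%) and 1603 lower (29.4%), with 115 and 80 at 2-fold or more. Both analyses shared 3034 calls in the same direction, 77 calls ended without WT replicate 2 and 242 were gained. No gene was called in opposite directions. The median difference of all genes was 0.01. Counts in the gene lists below stand beside these shares of all genes, 29.0% higher and 28.1% lower. For 4094 genes, 75.1%, the 95% interval of the difference lay within 0.5 of 0, and for 3824 genes, 70.2%, it did so without WT replicate 2. Against the other strains, hac1∆(hsf1) had 1442 genes higher and 1673 lower than hac1∆, and 2274 higher (41.7%) and 1949 lower (35.8%) than WT(hsf1).

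Genes of protein folding in the ER were mostly lower in hac1∆(hsf1) than in WT. Of 24 measured, 14 were lower and 2 higher, with a median of -0.50, and without WT replicate 2 the counts were 15 and 2 with a median of -0.53. On the single arrays, the median deviation of these genes from their mean over the series was 0.28, 0.20 and 0.26 in WT and -0.14, -0.19 and -0.25 in hac1∆(hsf1). In hac1∆ minus WT, which shares the WT arrays, 16 were lower and 3 higher with a median of -0.34, against 22.3% and 28.4% of all genes. The test of hac1∆(hsf1) against hac1∆ called 5 higher and 7 lower, against 26.5% and 30.7% of all genes, so both counts were near the shares over all genes.

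KAR2 and ERO1 lay between hac1∆ and WT. KAR2 encodes BiP, the main Hsp70 of the ER. It read 11.94, 11.83 and 11.96 in WT, 11.32, 11.49 and 11.25 in hac1∆(hsf1) and 10.31 on average in hac1∆. The arrays of hac1∆(hsf1) lay below all WT arrays by 0.56 ± 0.06, or 1.47-fold (limma adjusted p = 1.74e-05), which was 1.51-fold without WT replicate 2, and above hac1∆ by 1.04 (limma adjusted p = 1.06e-07). ERO1, the thiol oxidase that feeds oxidizing equivalents to protein disulfide isomerase, read 11.16, 10.70 and 11.20 in WT and 10.41, 10.09 and 10.03 in hac1∆(hsf1), with 8.94 in hac1∆. It was lower than WT by 1.79-fold (limma adjusted p = 9.37e-05), or 2.0-fold without WT replicate 2, and higher than hac1∆ by 1.24 (limma adjusted p = 3.06e-06). ERV2, the second ER thiol oxidase, overlapped with WT, with an interval from -0.13 to 0.12, and was 0.33 above hac1∆.

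A second group had the level of hac1∆ or less. SIL1, the nucleotide exchange factor of BiP, read 9.83, 9.37 and 9.70 in WT and 7.33, 7.29 and 7.20 in hac1∆(hsf1), and averaged 7.25 in hac1∆. It was 5.12-fold lower than in WT (limma adjusted p = 4.59e-09), or 5.61-fold without WT replicate 2, and differed from hac1∆ by 0.03 (limma adjusted p = 0.805). LHS1, an ER Hsp70 that also exchanges BiP's nucleotide, read 9.64, 9.07 and 9.63 in WT and 7.75, 7.64 and 7.75 in hac1∆(hsf1), a 3.33-fold lower level, or 3.80-fold without WT replicate 2. The ER J-domain proteins JEM1 and SCJ1, which stimulate BiP, were lower by 1.27 and 0.90 and differed from hac1∆ by 0.14 and -0.07, neither called. FPR2, a prolyl isomerase, and MPD2, a member of the protein disulfide isomerase family, were lower than WT by 0.94 and 0.77 and differed from hac1∆ by 0.04 and 0.05, again not called.

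PDI1, its relatives MPD1 and EUG1 and the J protein gene ERJ5 were below hac1∆ as well as below WT. MPD1 read 9.47, 9.05 and 9.45 in WT and 6.77, 6.85 and 6.75 in hac1∆(hsf1), which is 5.79-fold lower, 6.37-fold without WT replicate 2, and 0.39 below hac1∆ (limma adjusted p = 3.33e-09 and 0.00357). EUG1 read 8.90, 8.43 and 8.84 in WT and 6.71, 6.82 and 6.74 in hac1∆(hsf1), 3.91-fold lower, 4.34-fold without WT replicate 2, and again 0.39 below hac1∆. ERJ5 was 1.43 below WT and 0.30 below hac1∆ (limma adjusted p = 1.24e-06 and 0.034). PDI1 itself read 11.69, 11.49 and 11.62 in WT and 11.13, 11.21 and 11.02 in hac1∆(hsf1). It was 0.48 below WT, 0.54 without WT replicate 2, and 0.21 below hac1∆, both called.

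Of the other members, CPR5, an ER cyclophilin, and SHR3, which packages amino acid permeases, were lower than WT by 0.38 and 0.52. PHO86, which packages a phosphate transporter, and GTB1, the beta subunit of glucosidase II, were higher by 0.31 and 0.21. The 8 members without a call had differences between -0.13 for ROT2, the glucosidase II catalytic subunit, and 0.16 for ROT1. ROT2 was called lower, at -0.21, without WT replicate 2.

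**Figure D3:**
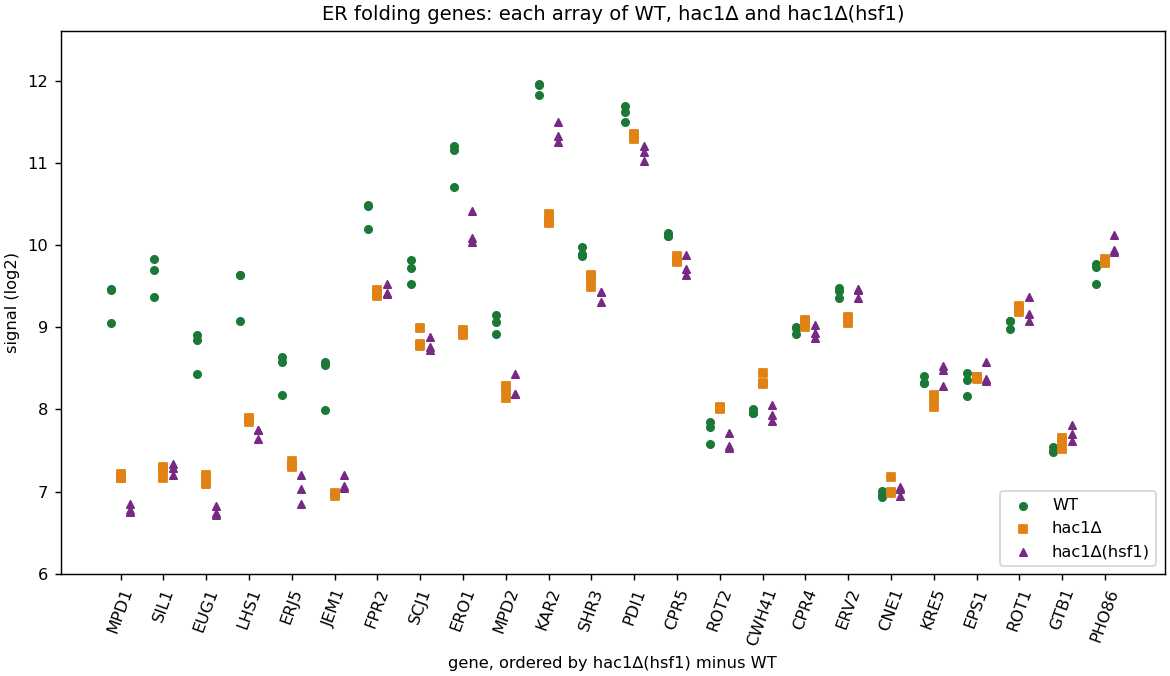
Signal (log2) of the 24 ER folding genes on each array of WT (circles), hac1∆ (squares) and hac1∆(hsf1) (triangles), ordered by hac1∆(hsf1) minus WT. From MPD1 to MPD2 the hac1∆(hsf1) arrays lay near or below hac1∆ except for ERO1, and KAR2 lay between hac1∆ and WT.

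Among 14 genes of unfolded protein response signalling and its strongest markers, 5 were lower and 3 higher, against 28.1% and 29.0% of all genes. The list's median was -0.04 (-0.02 without WT replicate 2). ULI1, a gene named for its induction in the unfolded protein response, read 10.84, 10.52 and 10.70 in WT and 6.40, 6.56 and 6.53 in hac1∆(hsf1), and 6.40 on average in hac1∆. It was 18.2-fold lower than in WT (limma adjusted p = 6.1e-11), or 19.3-fold without WT replicate 2, the largest decrease after HAC1, and 0.10 from hac1∆ (limma adjusted p = 0.429). YOR387C read 9.80, 9.68 and 9.95 in WT and 7.98, 8.33 and 8.40 in hac1∆(hsf1), against a mean of 5.77 in hac1∆. It was therefore 2.98-fold below WT, 3.12-fold without WT replicate 2, and 2.47 above hac1∆ (limma adjusted p = 1.98e-05 and 3.12e-07). Its paralog VEL1 was 0.50 below WT (limma adjusted p = 0.0148) and level with hac1∆, and its call ended without WT replicate 3 and with array weights. ORM2, a regulator of sphingolipid synthesis, was 0.23 lower. OPI10 had the largest increase of the list, 1.06, or 1.29 without WT replicate 2. PTC2 and DCR2, phosphatases that act on Ire1, were 0.25 and 0.17 higher, and the DCR2 call ended under 6 of the 14 alternatives. TRL1, the ligase of HAC1 splicing, was not called.

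Of 20 genes of ER-associated degradation, 8 were lower and 3 higher, against 28.1% and 29.0% of all genes. The median was -0.05 both over all arrays and without WT replicate 2. DER1 and DFM1, the yeast derlins, were lower by 1.70 and 1.20, and HRD3, a subunit of the Hrd1 ubiquitin ligase, by 0.47. DER1 read 9.66, 9.38 and 9.77 in WT and 7.89, 7.94 and 7.88 in hac1∆(hsf1), with no overlap and a mean of 8.10 in hac1∆, and its difference was -1.81 without WT replicate 2. UFD1 and NPL4, the cofactors of Cdc48, were higher by 0.35 and 0.34, and ASI2, of a nuclear membrane ubiquitin ligase, by 0.95.

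Genes that bring proteins into the ER and glycosylate them were lower as groups. Of 26 genes of translocation, 19 were lower and none of the 26 was called higher, with a median of -0.38 (-0.43 without WT replicate 2). The largest decreases were in the Sec62/Sec63 complex for post-translational import. SEC62 read 9.85, 9.65 and 9.87 in WT and 8.43, 8.28 and 8.39 in hac1∆(hsf1), 2.69-fold lower with no overlap (limma adjusted p = 1.27e-08), or 2.82-fold without WT replicate 2. SEC66 was lower by 1.25 and SEC63 by 1.17. Each of these genes was also below hac1∆, by 0.41, 0.71 and 0.54.

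In N-glycosylation, 18 of 28 genes were lower and 2 higher, with a median of -0.33 (-0.39 without WT replicate 2). DPM1, which makes dolichol phosphate mannose, was lower by 1.32, PSA1, which makes GDP-mannose, by 1.27 and SEC59, the dolichol kinase, by 1.23. ALG14, of an early step on the dolichol sugar chain, was higher by 0.28. In O-mannosylation 8 of 12 genes were lower and 1 higher, with a median of -0.32 (-0.37 without WT replicate 2). The mannosyltransferase genes PMT2 and PMT1 were lower by 1.14 and 0.68, and KRE2, a Golgi mannosyltransferase, was higher by 0.31.

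Among 25 genes of the glycosylphosphatidylinositol (GPI) anchor, 11 were lower and 5 higher, against 28.1% and 29.0% of all genes. The median was -0.12, or -0.14 without WT replicate 2 and -0.05 without hac1∆(hsf1) replicate 1. MCD4, a phosphoethanolamine transferase of the anchor, read 10.19, 9.78 and 10.13 in WT and 7.78, 7.87 and 7.83 in hac1∆(hsf1), 4.61-fold lower (limma adjusted p = 5.17e-09), or 5.03-fold without WT replicate 2. It differed from hac1∆ by 0.07. GWT1, an acyltransferase of the pathway, was lower by 1.48, while GPI12, its deacetylase, was higher by 0.96.

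Of 26 genes of COPII vesicles and export from the ER, 14 were lower and 2 higher, with a median of -0.20 (-0.23 without WT replicate 2). ERP2 and ERP1, cargo adaptors of the p24 family, were lower by 1.60 and 1.45, and SEC12, which activates the coat GTPase Sar1, by 0.85. Of 23 genes of COPI vesicles and retrieval, 15 were lower and 4 higher, with a median of -0.24 (-0.29 without WT replicate 2). RET3, a coat subunit, and ERD2, the receptor that returns ER residents, were lower by 1.08 and 1.01. The highest gene of that list, RET1, encodes an RNA polymerase III subunit and was at 0.34.

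Cytosolic chaperones of the Hsp70 system were higher in part. Of 20 genes, 10 were higher and 5 lower, with a median of 0.10 (0.11 without WT replicate 2). SSA3, a stress-inducible Hsp70, read 9.36, 10.33 and 9.37 in WT and 10.84, 11.12 and 11.02 in hac1∆(hsf1), and averaged 8.17 in hac1∆. It was 2.48-fold above WT (limma adjusted p = 0.000138), 3.09-fold without WT replicate 2, and 2.82 above hac1∆ on the log2 scale (limma adjusted p = 2.45e-07). SSA4, the other inducible Hsp70, read 10.49, 10.94 and 10.41 in WT and 11.38, 11.43 and 11.37 in hac1∆(hsf1), 1.72-fold higher, or 1.92-fold without WT replicate 2, with means of 9.34 in hac1∆ and 9.23 in WT(hsf1). The groups of both genes did not overlap, and WT replicate 2 was the highest WT array of each.

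Exchange factors and J proteins moved both ways. SSE2, an Hsp110 exchange factor, was higher by 1.07, APJ1, a J protein, by 0.58, FES1, an exchange factor, by 0.38, and the J proteins YDJ1 and SIS1 by 0.38 and 0.20. SWA2, a J-domain protein of clathrin uncoating, was lower by 0.57 and SNL1, an exchange factor of the ER membrane, by 0.28. The J proteins CAJ1, DJP1 and ZUO1 were not called, at -0.05, -0.12 and 0.06. The abundant members moved little. SSA1 read 11.59, 11.62 and 11.57 in WT and 11.71, 11.73 and 11.49 in hac1∆(hsf1), with an interval from -0.09 to 0.18, and SSE1 had an interval from -0.10 to 0.23. SSA2 was called at 0.14, a call that ended under 5 of the 14 alternatives. The ribosome-bound Hsp70 genes SSB1 and SSB2 were lower by 0.47 and 0.34, and SSZ1, of the ribosome-associated complex, by 0.39, a call that ended under 3 alternatives.

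Of 14 genes of Hsp90 and its cochaperones, 5 were higher and 5 lower, against 29.0% and 28.1% of all genes. The median was 0.06 (0.07 without WT replicate 2). CPR6, a cyclophilin cochaperone, was higher by 0.51 and AHA1, the activator of the Hsp90 ATPase, by 0.28. CNS1 and CDC37, both essential cochaperones, were lower by 0.37 and 0.29, and HSC82, the constitutive Hsp90, by 0.27. HSP82, the inducible Hsp90, read 11.08, 11.08 and 11.11 in WT and 11.16, 11.24 and 11.18 in hac1∆(hsf1). Its difference of 0.10 was called (limma adjusted p = 0.0483) and was lost without WT replicate 2 (limma adjusted p = 0.0853), as under 11 of the 14 alternatives in all.

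A mixed list held 9 measured genes of disaggregation, small heat shock and other stress proteins. Of these, 6 were higher and none of the 9 lower, with a median of 0.43 (0.52 without WT replicate 2). HSP30, a heat shock protein of the plasma membrane, read 10.17, 10.85 and 10.32 in WT and 11.25, 11.29 and 11.27 in hac1∆(hsf1), 1.77-fold higher, or 2.03-fold without WT replicate 2. BTN2 and CUR1, which sort misfolded protein, were higher by 0.70 and 0.47, MDJ1, a mitochondrial J protein, by 0.51, and HSP42 by 0.26. HSP104, the disaggregase, and HSP26, a small heat shock protein, were not called, with intervals from -0.16 to 0.10 and from -0.18 to 0.13. Both were called 0.35 and 0.36 lower in hac1∆ than in WT, and hac1∆(hsf1) was 0.32 and 0.34 above hac1∆. Signals of HSP26 and HSP12 lay near the largest value of the series, 12.75.

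**Figure D4:**
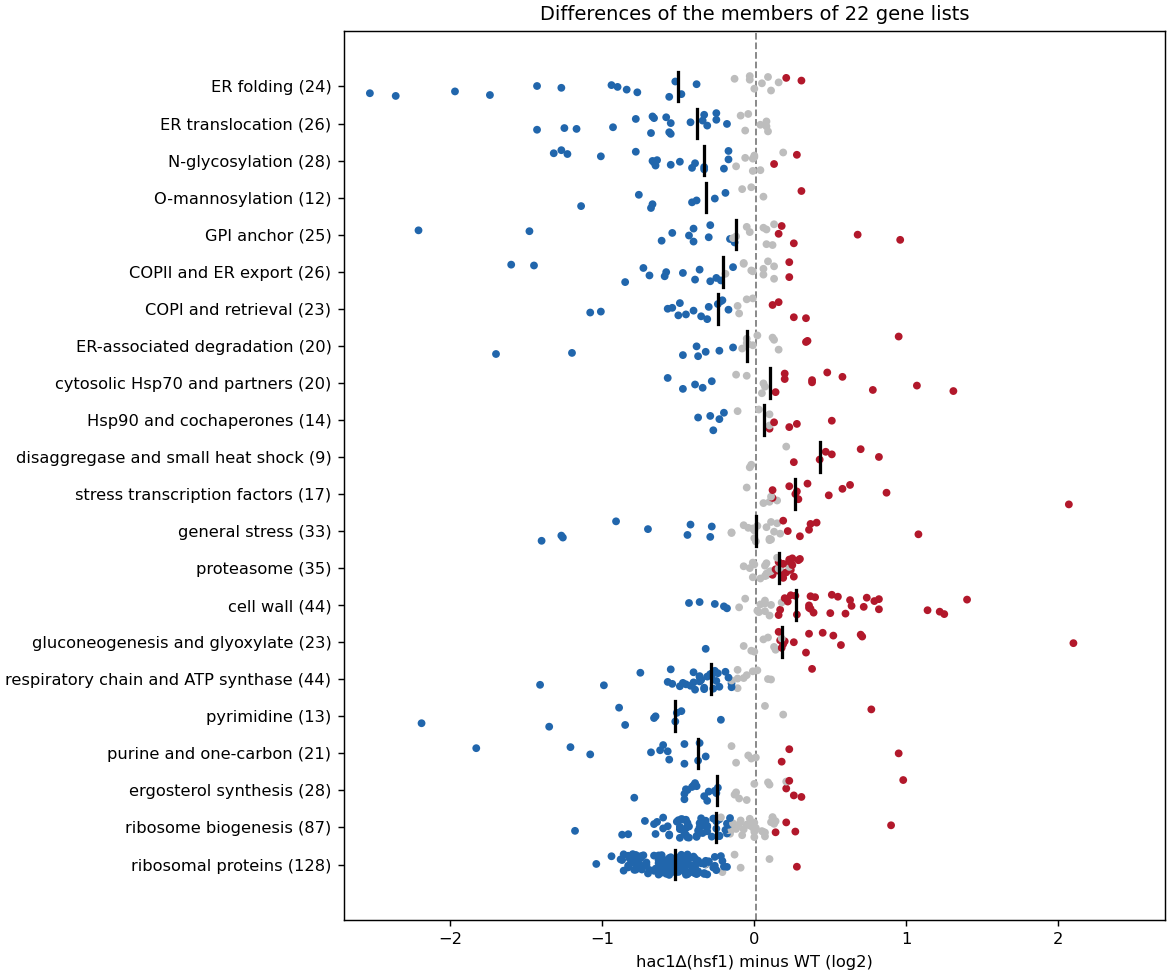
Difference hac1∆(hsf1) minus WT (log2) of the members of 22 gene lists, with the number measured in parentheses. Points are genes, red called higher, blue called lower and grey not called, the black bar is the list's median and the dashed line the median of all genes at 0.01. Most lists of the ER and those of translation, respiration and nucleotide synthesis lie to the left. Lists of stress factors and the cell wall lie to the right. ER-associated degradation, at -0.05, general stress, at 0.01, and Hsp90, at 0.06, lie near the dashed line. HAC1, ULI1 and other genes outside the 22 lists are not drawn.

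Of 17 genes of stress transcription factors, 12 were higher and none of the 17 lower, with a median of 0.27 (0.29 without WT replicate 2), HSF1 among them. PDR3, a factor of drug resistance, was higher by 0.87 and SKO1, of the osmotic stress response, by 0.63. Of 33 general stress genes, 7 were higher and 9 lower, with a median of 0.01 (0.03 without WT replicate 2), and these counts were no larger a share than over all genes. CTT1, the cytosolic catalase, read 10.66, 10.32 and 10.44 in WT and 9.10, 9.19 and 8.92 in hac1∆(hsf1), 2.63-fold lower, or 2.78-fold without WT replicate 2. SIP18 and GRE1, hydrophilins of desiccation, were lower by 1.27 and 1.26, and SPI1, a cell wall protein of stress, was higher by 1.08. HSP12 had an interval from -0.10 to 0.13. In hac1∆ minus WT, 21 of the 33 were lower with a median of -0.35, against 22.3% of all genes. In WT(hsf1) minus WT 32 were lower, against 33.8% of all genes. Those comparisons share the WT arrays.

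The proteasome list had 18 of 35 genes higher and none of the 35 lower, with a median of 0.16 (0.18 without WT replicate 2) and a largest difference of 0.30 at RPT6, an ATPase of its base. Single-array medians of the deviation were -0.03, 0.06 and -0.08 in WT and 0.17, 0.10 and 0.09 in hac1∆(hsf1). The strains did not overlap, although the distance between the nearest arrays was small. In hac1∆ minus WT 23 of these genes were higher, with a median of 0.19, against 28.4% of all genes.

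Ribosomal protein genes were lower almost without exception. Of 128 measured, 122 were lower and 1 higher, with a median of -0.52, and without WT replicate 2 the counts were 125 and 1 with a median of -0.62. The median deviation was -0.24, -0.39 and -0.11 on the WT arrays and -0.72, -0.82 and -0.83 on the hac1∆(hsf1) arrays, with WT replicate 2 the lowest of WT. RPS22A had the largest decrease, from 9.08, 8.50 and 9.22 in WT to 8.07, 7.93 and 7.69 in hac1∆(hsf1), a 2.05-fold lower level (limma adjusted p = 0.000166), or 2.38-fold without WT replicate 2. RPS0A was the gene called higher, by 0.28. RPL39 was not called over all arrays (limma adjusted p = 0.0572) and was lower by 0.47 without WT replicate 2.

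The other strains stood elsewhere for these genes. In hac1∆ minus WT 89 were higher and 1 lower, with a median of 0.28, against 28.4% and 22.3% of all genes. In WT(hsf1) minus WT 126 were higher, with a median of 1.19, against 32.3% of all genes. hac1∆(hsf1) was thus the strain with the lowest ribosomal protein signals of the 4. Against hac1∆, 126 of 128 were lower, with a median of -0.83, where 30.7% of all genes were lower. The mean signal of the 14 ribosomal RNA control probe sets was 8.12, 7.65 and 7.85 in WT and 8.02, 7.36 and 8.32 in hac1∆(hsf1), so the groups overlapped in that measure.

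Ribosome biogenesis genes were lower at 55 of 87 and higher at 4, with a median of -0.25 (-0.30 without WT replicate 2). RRP1, for maturation of the large subunit, was lower by 1.18, NOP56, a core protein of box C/D particles, by 0.87, and NSR1, a nucleolin-like protein, by 0.83. UTP20, of the small subunit processome, was higher by 0.90. Of 55 mitochondrial ribosomal protein genes 8 were higher and 19 lower, against 29.0% and 28.1% of all genes. Their median was -0.06 with or without WT replicate 2. Of 36 translation factors, 15 were lower and 5 higher, against 28.1% and 29.0% of all genes. Their median was -0.04 (-0.05 without WT replicate 2), and the elongation factor gene YEF3 was lower by 0.61.

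The respiratory chain and ATP synthase were lower at 33 of 44 genes and higher at 1, with a median of -0.28 (-0.32 without WT replicate 2). The single-array medians of the deviation were 0.35, 0.25 and 0.34 in WT and 0.10, -0.03 and -0.02 in hac1∆(hsf1). CYC7 and CYC1, the cytochrome c isoforms, were lower by 1.41 and 0.99, and ATP20, an ATP synthase subunit, by 0.75. CYC7 was 0.89 above hac1∆, and CYC1 0.93 below it. HAP5, a subunit of the respiratory gene activator, was the gene called higher, by 0.38. In WT(hsf1) minus WT 42 of the 44 were lower, with a median of -0.87, against 33.8% of all genes.

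Gluconeogenesis, the glyoxylate cycle and fat oxidation were higher at 14 of 23 genes and lower at 1, with a median of 0.18 (0.20 without WT replicate 2). SIP4, an activator of gluconeogenic genes, read 6.47, 8.02 and 6.58 in WT and 9.36, 8.80 and 9.22 in hac1∆(hsf1), 4.29-fold higher over all arrays and 6.06-fold without WT replicate 2. FOX2 and FAA2, of peroxisomal fatty acid use, were higher by 0.71 and 0.70. Of 32 glycolysis and fermentation genes 6 were higher and 12 lower, against 29.0% and 28.1% of all genes. Their median was -0.01 (0.00 without WT replicate 2). HXT1, a low-affinity glucose transporter, was lower by 0.83, in a list of 23 with 2 higher and 5 lower. Both counts were smaller shares than over all genes.

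Pyrimidine synthesis and uptake were lower at 10 of 13 genes and higher at 1, with a median of -0.52 (-0.54 without WT replicate 2). URA3, orotidine phosphate decarboxylase and a common selection marker in medium without uracil, read 11.88, 11.62 and 11.86 in WT and 9.54, 9.68 and 9.58 in hac1∆(hsf1), 4.56-fold lower (limma adjusted p = 4.35e-10), or 4.82-fold without WT replicate 2. It averaged 12.13 in hac1∆ and 10.91 in WT(hsf1). The 3 control probe sets for URA3 were lower in hac1∆(hsf1) than in WT by 2.29, 2.42 and 2.33. On each of them WT replicate 2 was below the other WT arrays, by 0.35 to 0.61. Whether URA3 is carried on a plasmid in these strains is not given in the labels. URA1, dihydroorotate dehydrogenase, was lower by 1.35 and FUI1, the uridine permease, by 0.89, and both were above WT in hac1∆, by 0.35 and 0.45. FUR4, the uracil permease, was higher by 0.77.

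Purine and one-carbon genes were lower at 13 of 21 and higher at 3, with a median of -0.37 (-0.44 without WT replicate 2). SHM2, the cytosolic serine hydroxymethyltransferase, was 3.54-fold lower, or 3.70-fold without WT replicate 2, from 9.93, 9.72 and 9.87 to 8.02, 8.08 and 7.94. GCV1, of the glycine cleavage system, and ADE17, of late purine synthesis, were lower by 1.21 and 1.08, while IMD2, IMP dehydrogenase, was higher by 0.95.

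Ergosterol synthesis was lower at 15 of 28 genes and higher at 5, with a median of -0.25 (-0.26 without WT replicate 2). By contrast, hac1∆ minus WT had 19 higher and 2 lower with a median of 0.26, against 28.4% and 22.3% of all genes. The direct test of hac1∆(hsf1) against hac1∆ called 22 lower and 4 higher, against 30.7% and 26.5% of all genes. ERG5 and ERG3, desaturases of late steps, were lower than WT by 0.79 and 0.46, ERG6, the sterol methyltransferase, was higher by 0.31, and HES1, an oxysterol-binding protein, by 0.98. Of 15 fatty acid genes, 9 were lower and 1 higher, with a median of -0.19 (-0.21 without WT replicate 2) and with ELO2, an elongase, lower by 0.94. Of 22 genes of inositol and phospholipid synthesis, 9 were lower and 3 higher, against 28.1% and 29.0% of all genes. The median was -0.03 with or without WT replicate 2, and the largest increase, 0.53, was at PAH1, the phosphatidate phosphatase.

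Cell wall genes were higher at 28 of 44 and lower at 5, with a median of 0.27 (0.32 without WT replicate 2). PRM5, a reporter gene of the cell integrity pathway, read 8.03, 8.98 and 8.22 in WT and 9.86, 9.79 and 9.77 in hac1∆(hsf1), 2.63-fold higher (limma adjusted p = 3.88e-05), or 3.20-fold without WT replicate 2, and hac1∆ averaged 9.75. SLT2, the kinase of that pathway, read 8.98, 9.74 and 8.82 in WT and 10.38, 10.47 and 10.45 in hac1∆(hsf1), 2.38-fold higher, or 2.89-fold without WT replicate 2. CWP1, a wall mannoprotein, was higher by 1.22. Differences from hac1∆ were 0.06, 0.34 and 0.35, none of them called. The list's median was 0.31 in hac1∆ minus WT, with 30 higher and 2 lower, against 28.4% and 22.3% of all genes.

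The largest increases were led by YOR338W, which read 7.01, 9.36 and 7.04 in WT and 10.40, 10.33 and 10.35 in hac1∆(hsf1). It was 5.88-fold higher over all arrays (limma adjusted p = 0.000406) and 10.1-fold without WT replicate 2, and averaged 6.90 in hac1∆. SPO1, a meiotic gene, followed at 2.14, or 2.71 without WT replicate 2, then SIP4, HSF1, FLO8, a flocculation factor, at 2.07, SUC2, invertase, at 1.99, and ECM16, a helicase of ribosome assembly, at 1.98. TRS65, a subunit of a vesicle tethering complex, YIL089W, MDL2, a mitochondrial transporter, SPS2 and OSW2, both of the spore wall, lay between 1.77 and 1.89. These 12 genes were taken from calls whose arrays did not overlap, so WT replicate 2 could only lie below all hac1∆(hsf1) arrays. In each of them that array also lay above the other WT arrays. The differences without it were 2.19 to 3.33. SPS2 read 5.19 and 5.23, below background, on WT replicates 1 and 3.

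Besides HAC1, ULI1, MPD1, SIL1, MCD4, URA3, EUG1 and SHM2, the 12 largest decreases held MF(ALPHA)1, CYB5, DOG1 and NRG2. MF(ALPHA)1, the gene of the alpha-factor pheromone precursor, read 8.17, 8.45 and 8.88 in WT and 6.0, 5.96 and 5.81 in hac1∆(hsf1), 5.96-fold lower, or 6.06-fold without WT replicate 2, and WT replicate 2 lay inside the range of the other WT arrays. CYB5, cytochrome b5, read 9.14, 8.82 and 9.29 in WT and 6.90, 6.79 and 6.68 in hac1∆(hsf1), 4.90-fold lower, or 5.38-fold without WT replicate 2, and was 1.44 below hac1∆ (limma adjusted p = 2.21e-07). DOG1, a sugar phosphatase, and NRG2, a repressor of glucose-repressed genes, were lower by 1.91 and 1.86, within 0.08 and 0.05 of hac1∆.

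**Figure D5:**
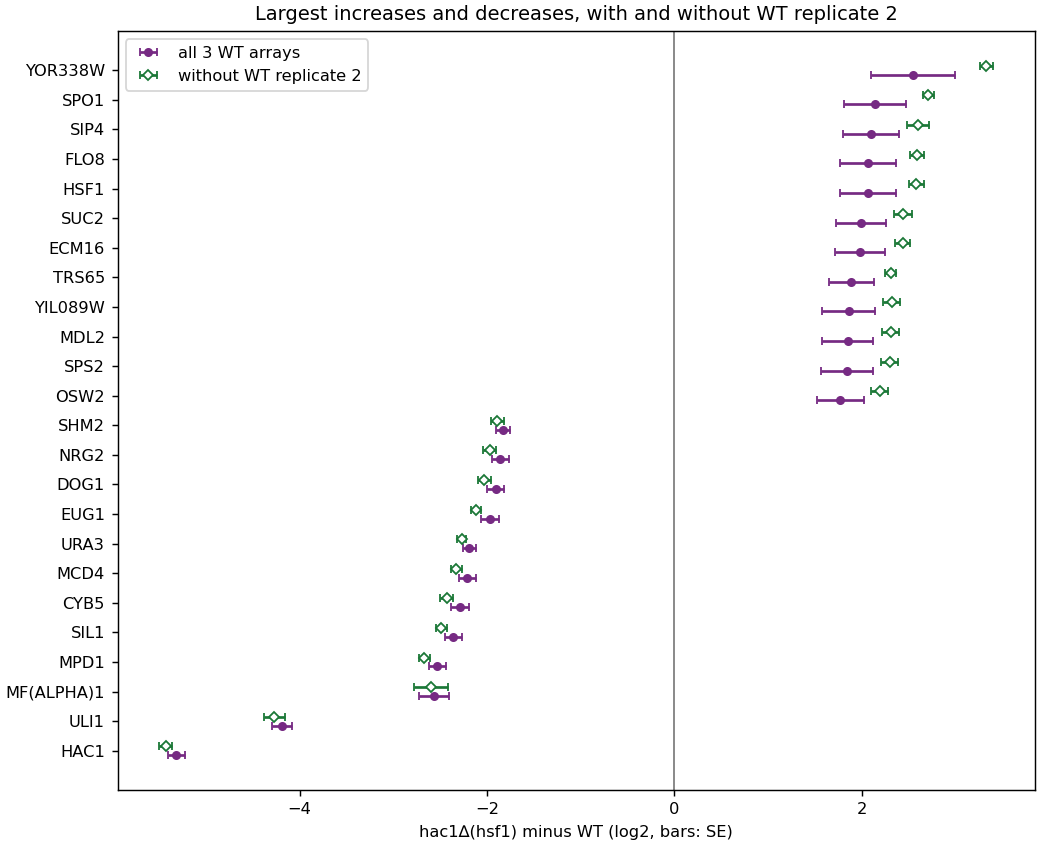
The 12 largest increases and the 12 largest decreases of hac1∆(hsf1) minus WT (log2), with bars of 1 standard error, over all arrays (filled circles) and without WT replicate 2 (open diamonds). Without that array the increases were larger and their errors smaller, while the decreases moved less.

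Leaving out WT replicate 2 ended 77 calls, the largest of them at BNA3 (-0.26 without it, limma adjusted p = 0.0935), SET3, AKR1, YPL247C, TIR2 and YER188C-A, all under 0.4 in size. It gained calls with the largest differences at FMP45 (0.64, limma adjusted p = 0.00501), YOR302W, YER138W-A, FRE1, RPL39 and PHO89. FMP45 is an eisosome protein, FRE1 a ferric reductase and PHO89 a phosphate transporter.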

How the data were processed

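The deposited values were log2 signals of 10928 probe sets on 12 Affymetrix yeast arrays. The submitters' processing notes name PLIER, with no version. Normalization, offset and log base are not stated in the labels or headers. The largest value, 12.75, would exceed the 16-bit scanner limit as a power of e but not of 2, so log2 was read from the deposited values. No depth applies to arrays, and their number limits the precision.

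Of the probe sets, 5498 matched the S. cerevisiae gene table. For 47 genes with several, the highest mean was used, leaving 5449 genes. Values were fitted with limma 3.58.1 (1 mean per strain, all 12 arrays, 8 residual degrees of freedom, empirical Bayes, Benjamini-Hochberg adjustment over all genes, adjusted p under 0.05). Two-sided limma p-values rest on the spread between cultures labelled as biological replicates, pooled over all strains. The median standard deviation over genes was 0.08 in WT and in hac1∆(hsf1), and 0.05 in WT(hsf1) and in hac1∆. The pooled value may therefore understate the spread of the strains compared. Data were simulated for hac1∆(hsf1) minus WT with 200 of 5449 genes changed and normal noise of equal spread in all strains. Of these changes, 65 of 100 of 0.3 and 97 of 100 of 1 were recovered, with 9 false calls. In the array data 57.1% of genes were called and WT replicate 2 stood apart, so these rates may not apply to them. Alternatives left out each WT and hac1∆(hsf1) array in turn, or fitted those strains alone. Others changed blocking, normalization, weights, filter or probe sets, or added an intensity trend. Named genes are a fixed list, the 12 largest increases and decreases, up to 3 each way per gene list, all members of 7 lists, and calls that turn on WT replicate 2. The 12 largest were taken from called genes with arrays that did not overlap and a mean above background in at least 1 strain. They also had to be called in the same direction without WT replicate 2. Members and the 50 lists were chosen with earlier results of these data known.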

Additional observations from a re-analysis of the deposited data

Results flagged for a closer look

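A signal outside the gene table was seen on 1 array while its group mates were below background. The reporter control probe set read 10.47 on WT replicate 2, against 5.16 and 5.16 on the other WT arrays, and averaged 11.20 in hac1∆(hsf1), where the labels name no reporter. On the linear scale WT replicate 2 stood at 0.60 of the distance from the other WT arrays to hac1∆(hsf1) in this probe set. The sequence behind the probe set is not named here, and the source of its signal on WT replicate 2 was not tested.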

How the results depend on the processing

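Among the 336 named genes, no call changed direction under any of the 14 alternatives. Over all genes, opposite calls were looked for only without WT replicate 2, and none was found. Without 1 WT or hac1∆(hsf1) array, 1359 to 1673 genes were higher and 1357 to 1603 lower. By 2-fold or more, 56 to 115 were higher and 55 to 80 lower. The fit with the replicate block called 1639 higher and 1545 lower. Deviations of same-numbered arrays correlated at 0.16, 0.10 and -0.03, so the numbers were not shown to pair arrays. The 2 strains alone gave 1253 higher and 1263 lower.

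List medians moved by more than the spread between arrays in these cases. The name hypoxic genes stands here for the whole list of aerobic and hypoxic pairs, 16 genes of both kinds. Quantile normalization gave -0.43 for ER folding, -0.21 for ergosterol, 0.06 for mitochondrial chaperones and -0.10 for hypoxic genes. Median centring gave -0.07 for response signalling, -0.06 for phospholipid, -0.22 for fatty acid, 0.06 for mitochondrial chaperones, -0.40 for purine, -0.04 for hexose transporters, -0.17 for hypoxic genes and -0.10 for cyclins. Array weights gave -0.39 for N-glycosylation, -0.24 for COPII, -0.23 for fatty acid, -0.45 for purine, -0.06 for glycolysis, -0.07 for hypoxic genes, -0.12 for cyclins and 0.15 for alpha-cell markers. Leaving out 1 array gave ranges of -0.39 to -0.30 for N-glycosylation, -0.14 to -0.05 for GPI anchors, -0.26 to -0.17 for fatty acid, 0.07 to 0.11 for mitochondrial chaperones, -0.11 to -0.05 for amino acid synthesis, -0.44 to -0.34 for purine, 0.10 to 0.28 for iron, -0.05 to 0.00 for glycolysis, -0.16 to -0.09 for hypoxic genes, -0.13 to -0.05 for cyclins, 0.09 to 0.20 for eisosomes, -0.19 to -0.11 for mating genes and -0.19 to -0.05 for auxotrophic markers. Of 336 named genes, 299 were called, and 268 of those were called in the same direction in all 14 alternatives. The cause of these shifts was not tested. Signals near background understate folds, and 213 genes were not above it.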

Other observations

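Iron genes, which the yeast activator Aft1 controls, were higher in hac1∆(hsf1) than in WT at 14 of 29 measured and lower at 4, with a median of 0.19, which was 0.23 without WT replicate 2 and 0.10 without hac1∆(hsf1) replicate 2. LSO1, a small protein induced on iron shortage, read 5.59, 6.95 and 5.66 in WT and 8.16, 7.63 and 7.60 in hac1∆(hsf1), 3.31-fold higher (limma adjusted p = 0.000214), or 4.51-fold without WT replicate 2. FTH1, a vacuolar iron transporter, was higher by 1.03, while the high-affinity uptake genes FTR1 and FET3 were lower by 0.43 and 0.37. Of 29 genes of ubiquitin and autophagy, 12 were higher and 2 lower, against 29.0% and 28.1% of all genes. The median was 0.10 (0.13 without WT replicate 2), with ATG5 and ATG3, of the Atg8 conjugation system, at 1.09 and 0.77.

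Amino acid synthesis was lower at 26 of 62 genes and higher at 14, against 28.1% and 29.0% of all genes. The median was -0.09, or -0.11 without WT replicate 2 and -0.05 without WT replicate 1. HOM3, aspartate kinase, was higher by 1.12 and LEU2 by 0.99, while GDH1, glutamate dehydrogenase, was lower by 1.01. Whether LEU2 serves as a marker in these strains is not given in the labels. Of 17 permease genes, 9 were lower and 4 higher, against the same shares of all genes. Their median was -0.17 (-0.21 without WT replicate 2), with PUT4, for proline, at -1.06 and BAP2, for branched-chain amino acids, at 1.17. Of 31 sulfur assimilation genes, 6 were higher and 4 lower, both smaller shares than over all genes.

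Mating type markers were read because the labels do not give the mating type. Of 8 a-cell markers 6 were lower and 1, AXL1, was higher in a call that ended without WT replicate 2. STE2, the alpha-factor receptor, read 9.22, 9.34 and 9.16 in WT and 8.74, 8.62 and 8.65 in hac1∆(hsf1), and BAR1 was lower by 0.83. Of 5 alpha-cell markers, STE3, the a-factor receptor, read 6.56 to 6.74 in WT and 6.67 to 6.83 in hac1∆(hsf1), and MF(ALPHA)2 was below background on all arrays of both strains. MF(ALPHA)1, well above background in WT, was lower, and AFB1, an a-factor barrier gene, was higher by 1.59.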
